A study of Macaca mulatta with 13 samples.

Results

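Immediate-early transcription factors were followed in the vastus lateralis, the large lateral thigh muscle, of 13 old rhesus monkeys (Macaca mulatta), all males. The genes named for the group were FOS, FOSB, JUN, JUNB, EGR1, ATF3, MYC, IER2, NR4A1 and NR4A3, and the members were every probe set annotated with exactly 1 of these symbols. This gave 6 of the 10 genes, on 9 probe sets, out of 14132 genes and 24956 probe sets with a single symbol. FOS, JUNB, MYC and IER2 had 1 probe set each, NR4A1 had 2 and ATF3 had 3, while FOSB, JUN, EGR1 and NR4A3 were not analysed here. The 8 calorie-restricted (CR) animals were 27 to 32 years old with 18.5 years on the restricted diet per the labels. The 5 animals on the control diet were 27 to 30 years old. RNA of each muscle was run on a single Affymetrix array in one colour. Precision is therefore limited by the number of animals, and ages are known per group only.

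Immediate-early genes are transcribed within minutes of a stimulus such as a growth factor, membrane depolarisation, contraction or injury, without the need for new protein synthesis. Kinase pathways act on transcription factors already bound at their promoters, among them serum response factor and CREB, and most of the transcripts decay quickly once the stimulus ends. FOS and JUN family proteins pair as the AP-1 factor, EGR1 is a zinc finger factor and the NR4A proteins are orphan nuclear receptors. In skeletal muscle these genes are known to respond to exercise and to injury.

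The tissue label was checked first. Of 18 skeletal muscle fibre markers, 15 had a tested probe set, with mean log2 signals from 11.25 for TTN to 16.86 for MYL1, so the arrays carried a strong muscle signal. The 2% trimmed mean signal was 500 on each array, as MAS5 scaling sets it, and r between arrays lay between 0.834 and 0.940 over 26383 probe sets. These were the brighter 50% of all probe sets, with a mean signal of at least 107, and 8 of the 9 immediate-early probe sets were among them. The ninth, the dimmest ATF3 probe set, is described below without a test.

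None of the immediate-early genes differed past the threshold between CR and control muscle. Log2 signals were fitted with limma and p-values adjusted over all 26383 probe sets by the Benjamini-Hochberg method, which called 0 of 8 tested members and 0% of the whole table. At an unadjusted p under 0.05 there was 1 of 8 members, against 2.43% of all probe sets. It was higher in CR, as were 1.25% of all probe sets, while 0 of 8 members and 1.18% of all probe sets were lower, and an exact two-sided permutation test gave 0 of 8 (lowest p = 0.0637, ATF3). All 8 had an adjusted p of 0.999 in limma. By sign alone, 5 of the 6 genes were higher in CR at their brightest probe set, and 6 of 6 after quantile normalization. The median log2 difference of the 6 was 0.53, with a median of -0.0016 over the brightest probe sets of all 9812 tested genes. In simulated data with the real spreads, a 2-fold change was called for 20 of 50 probe sets and a 4-fold change for 43 of 50. Those probe sets were picked at random and varied independently, and 6 unchanged probe sets were called too. FOS and the brightest ATF3 probe set spread more within diets than 98.8% and 98.9% of tested probe sets, so these shares do not apply to them. The CR and control signals overlapped for 9 of 9 immediate-early probe sets, and groups without overlap made up 0.072% of all tested probe sets.

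ATF3 is a stress-induced factor of the ATF and CREB family that can act as a repressor. Its brightest probe set ranged from 339 to 9673 in CR animals, with a median of 2398, and read 2376, 561, 423, 516 and 437 in control replicates 1 to 5. Of the 8 CR animals, 7 lay above the control mean and 4 above every control, but CR replicate 2 had the lowest signal of all 13 animals and control replicate 1 lay among the CR animals. CR animals averaged 3.13 times the control signal (a log2 difference of 1.65 ± 0.65, SE, 95% interval 0.27 to 3.03 before adjustment, limma adjusted p = 0.999). With single animals left out the log2 difference lay between 1.33, without CR replicate 3, and 2.11, without control replicate 1.

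The 3 ATF3 probe sets did not report the same pattern. The second ranged from 136 to 452 in CR animals (median 254) and from 179 to 274 in controls, with a log2 difference of 0.19 ± 0.27 (SE). It did not follow the brightest one across animals (r = -0.16, Spearman's rho = -0.16, n = 13). The third, below the brightness limit, ranged from 15.1 to 165 in CR animals (median 126) and read 116, 69.9, 29.4, 14.2 and 17.6 in control replicates 1 to 5. It followed the brightest one with r = 0.81 and rho = 0.72. Its log2 difference was 1.09 ± 0.72 (SE), taken from the fit without a brightness filter. With the tested ATF3 probe sets averaged, the log2 difference was 0.92 in place of 1.65.

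FOS, the founding member of the AP-1 family, had 1 probe set. Its signal ranged from 304 to 4948 in CR animals with a median of 1072, and was 2147, 456, 342, 1362 and 238 in control replicates 1 to 5. Within each diet the signals spread widely: CR replicates 1, 3 and 7 and control replicates 1 and 4 were high, and CR replicate 6 and control replicates 3 and 5 were low. Of the 8 CR animals 3 lay above every control. The mean was 10.14 ± 1.36 on the log2 scale in CR (SD, n = 8) and 9.33 ± 1.35 in control (SD, n = 5). The log2 difference was 0.82 ± 0.65 (SE), with an interval from -0.55 to 2.18 (exact permutation p = 0.308). It was 0.56 with RNA quality ratios as covariates, 0.46 without control replicate 5, 0.51 without CR replicate 3 and 1.25 without control replicate 1.

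NR4A1, an orphan nuclear receptor that in muscle regulates genes of glucose use, had 2 probe sets that followed each other closely (r = 0.94, rho = 0.95, n = 13). The brighter one ranged from 1556 to 7531 in CR animals, with a median of 3790, and read 6015, 2391, 1491, 1868 and 1680 in control replicates 1 to 5. Of the 8 CR animals 7 lay above the control mean, yet only CR replicate 3 exceeded control replicate 1. The other probe set ranged from 1058 to 4305 in CR animals (median 2450) and read 4874, 1730, 767, 1274 and 659 in control replicates 1 to 5, where control replicate 1 was the highest of all 13 animals. The log2 differences were 0.67 ± 0.37 (SE, interval -0.10 to 1.45) and 0.79 ± 0.42 (interval -0.10 to 1.68), with an exact permutation p of 0.141 for each. Without control replicate 1 they were 1.02 and 1.24. On the other side, they were 0.52 and 0.57 without control replicate 3, 0.56 and 0.52 without control replicate 5, and 0.49 and 0.65 with RNA quality ratios as covariates.

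IER2, a small nuclear protein named for its rapid induction, ranged from 567 to 1420 in CR animals (median 755) and read 537, 524, 495, 1286 and 415 in control replicates 1 to 5. The other 4 controls lay below every CR animal, while control replicate 4 was higher than 7 of the 8 CR animals. The log2 difference was 0.39 ± 0.28 (SE, interval -0.20 to 0.97, exact permutation p = 0.231), and it was 0.67 without control replicate 4, 0.26 without control replicate 5 and 0.26 without CR replicate 3. The array of control replicate 4 stood apart elsewhere too, with the highest value of 16.9% and the lowest value of 14.7% of all tested probe sets.

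JUNB, an AP-1 partner of FOS, and MYC, the growth-linked factor that pairs with MAX, showed mean differences near 0. JUNB ranged from 263 to 965 in CR animals (median 572) and read 804, 576, 472, 534 and 444 in control replicates 1 to 5. Its log2 difference was -0.019 ± 0.29 (SE, interval -0.63 to 0.59, exact permutation p = 0.949), and it was 0.022 after quantile normalization. MYC ranged from 173 to 747 in CR animals (median 422) and read 417, 380, 495, 523 and 281 in control replicates 1 to 5. Its log2 difference was 0.092 ± 0.30 (SE, interval -0.54 to 0.72, exact permutation p = 0.798). For both genes the highest and the lowest signal were in CR animals, replicate 3 and replicate 8, so the controls lay inside the CR range.

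**Figure D1:**
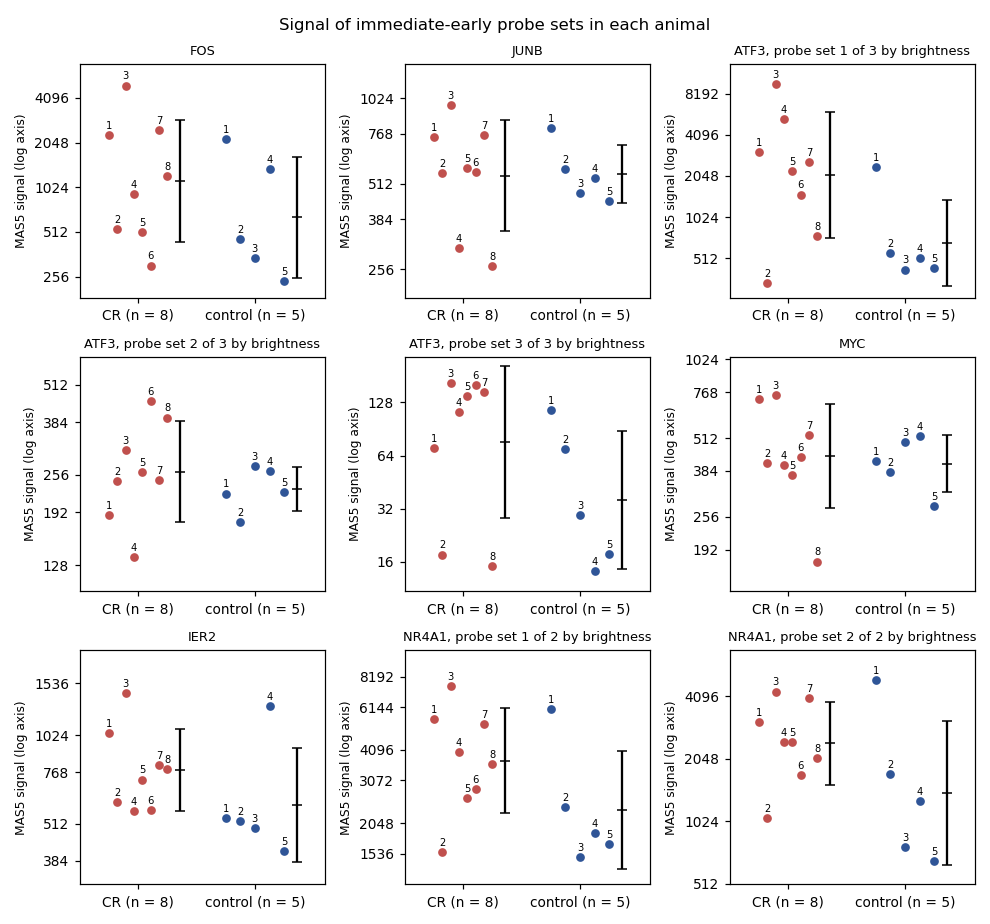
Signal of the 9 immediate-early probe sets in each animal, as deposited MAS5 signal on a log axis, with CR animals in red and control animals in blue, replicate numbers above the points, and black bars for the mean ± SD of log2 signals. The groups overlap in each panel, and CR replicate 3 has the highest signal of FOS, JUNB, MYC, IER2, the brightest ATF3 and the brighter NR4A1 probe set.

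The differences between animals of the same diet were large for part of the group. The within-diet SD of FOS was 1.36 on the log2 scale, larger than that of 98.8% of tested probe sets, and for the brightest ATF3 probe set it was 1.38, larger than 98.9%. The highest signal was 20.8 times the lowest for FOS and 28.5 times for ATF3. For NR4A1 the SD was 0.75 (83.8%) and 0.87 (89.4%) at its 2 probe sets. MYC at 0.57 (68.3%), JUNB at 0.55 (66.2%), IER2 at 0.53 (63.2%) and the second ATF3 probe set at 0.47 (53.2%) were closer to the median SD of 0.45. Dim probe sets spread more than bright ones, so the members were also set beside probe sets of like signal. Among probe sets within 0.5 log2 units of the same mean signal, the SD was larger than 99.7% of them for FOS, 99.6% for ATF3, 94.6% for NR4A1, 80.1% for IER2, 79.6% for JUNB and 78.0% for MYC.

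**Figure D2:**
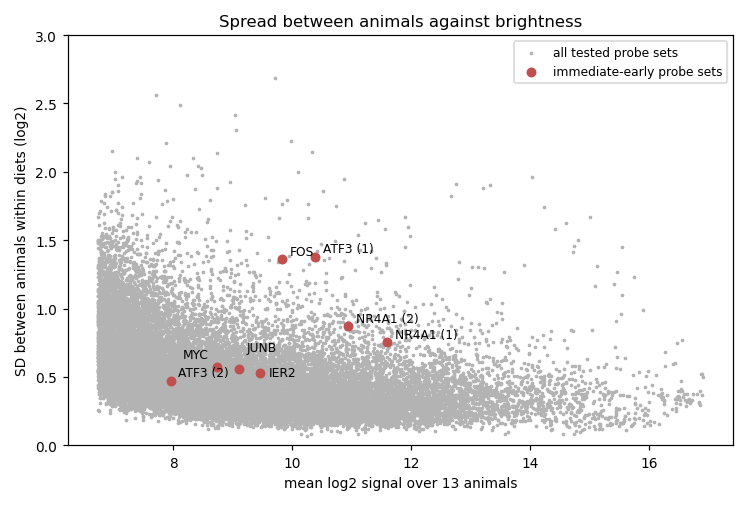
SD between animals within diets (log2, vertical axis) against mean log2 signal over 13 animals (horizontal axis) for all 26383 tested probe sets in grey and the 8 tested immediate-early probe sets in red, with numbers in brackets for the order of a gene's probe sets by brightness. FOS at 1.36 and the brightest ATF3 probe set at 1.38 lie high among probe sets of like signal, while the second ATF3 probe set at 0.47 lies within the grey field.

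The animals that were high for one immediate-early gene were mostly high for the others. CR replicate 3 ranked first of 13 for 6 of 6 genes, taking the brightest probe set of each, although it held the highest value of only 6.99% of all tested probe sets. CR replicates 1 and 7 ranked between 2 and 4 for 6 of 6 genes, and control replicate 5 ranked between 11 and 13. Other animals were mixed: CR replicate 4 ranked 2 for ATF3 and 12 for JUNB, CR replicate 8 ranked 5 for IER2 and 13 for JUNB and MYC, and control replicate 4 ranked 2 for IER2 and 10 for ATF3 and NR4A1. The 6 genes were also averaged, as z scores, into 1 score for each animal. It ran from -0.67 to 1.68 in CR animals and from -1.10 to 0.49 in controls, with means of 0.21 ± 0.84 (SD, n = 8) and -0.34 ± 0.64 (SD, n = 5).

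Pearson's r over the 13 animals was positive for 15 of 15 gene pairs, from 0.349 to 0.879 with a median of 0.471. Over all pairs of tested probe sets the median r was 0.001, with quartiles of -0.241 and 0.246, and 8.95% of them reached the immediate-early median. The points of such a correlation share the biopsy, the RNA extract and the scaling of the array. After Benjamini-Hochberg adjustment over the 15 pairs, 5 pairs passed by r and 3 by Spearman's rho, both with two-sided permutation tests.

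ATF3 and NR4A1 had the highest correlation, r = 0.879 (permutation p = 0.00024, adjusted p = 0.0036) and rho = 0.923 (permutation p = 4e-05, adjusted p = 0.0006). It was 0.810 without CR replicates 3 and 2, the animals farthest from the ATF3 median, and 0.826 within the 8 CR animals (exact permutation p = 0.0125). FOS and NR4A1 followed, with r = 0.837 (permutation p = 0.00068, adjusted p = 0.0051) and rho = 0.758 (permutation p = 0.00361, adjusted p = 0.018). Without CR replicate 3 and control replicate 5 that r was 0.750, and within CR it was 0.869 (exact permutation p = 0.00595). These pairs were the 2 that still passed when CR replicate 3 was left out, where the median r of the 15 pairs was 0.303. All correlations of ATF3 used its brightest probe set, which had r = 0.714 with the mean of the other 5 genes. The second ATF3 probe set had r = -0.036 with that mean and the third 0.518, so the correlations of ATF3 depend on the probe set.

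FOS and IER2 had r = 0.763 (permutation p = 0.00238, adjusted p = 0.00975) and rho = 0.775 (permutation p = 0.00291, adjusted p = 0.018). Without CR replicate 3 and control replicate 5 the r was 0.576, and without CR replicate 3 alone it was 0.662 (adjusted permutation p = 0.0706). JUNB and MYC had r = 0.763 as well (permutation p = 0.0026, adjusted p = 0.00975), with rho = 0.610 (permutation p = 0.0303, adjusted p = 0.0684), so the rank measure did not pass. Without CR replicates 8 and 4 their r was 0.680, and the call was lost without CR replicate 8 alone (r = 0.597, adjusted permutation p = 0.0668) or CR replicate 3 alone (r = 0.702, adjusted permutation p = 0.0600). FOS and ATF3, the last pair past the threshold, had r = 0.673 (permutation p = 0.0132, adjusted p = 0.0397) and rho = 0.659 (permutation p = 0.0172, adjusted p = 0.0646). That r was 0.463 without CR replicate 3 and control replicate 5, and the call was lost with 8 of the 13 animals left out singly, with an adjusted permutation p from 0.0589 without CR replicate 2 to 0.230 without CR replicate 3 (r = 0.535). The other 6 were control replicates 1, 2, 3 and 5 and CR replicates 1 and 7.

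JUNB followed ATF3 and NR4A1 closely in 11 of the 13 animals. Over all 13 animals r was 0.382 for JUNB and ATF3 (permutation p = 0.199, adjusted p = 0.218) and 0.435 for JUNB and NR4A1 (permutation p = 0.141, adjusted p = 0.177), with rho of 0.516 and 0.604 (adjusted permutation p = 0.110 and 0.0684). With CR replicate 3 alone left out r was 0.174 and 0.273. Without CR replicates 8 and 4, the animals with the lowest JUNB signals, r was 0.889 and 0.956. This was found by leaving out the animals farthest from the JUNB median, so it carries no test. The lowest correlation of the group was that of MYC and NR4A1, r = 0.349 (permutation p = 0.250, adjusted p = 0.250, rho = 0.396). Over all 13 animals MYC had r = 0.470 with FOS and 0.505 with IER2. Without CR replicate 8 alone, the r of MYC was 0.580 with NR4A1, 0.769 with FOS and 0.817 with IER2. Without CR replicate 3 alone, these were 0.171, 0.306 and 0.345.

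**Figure D3:**
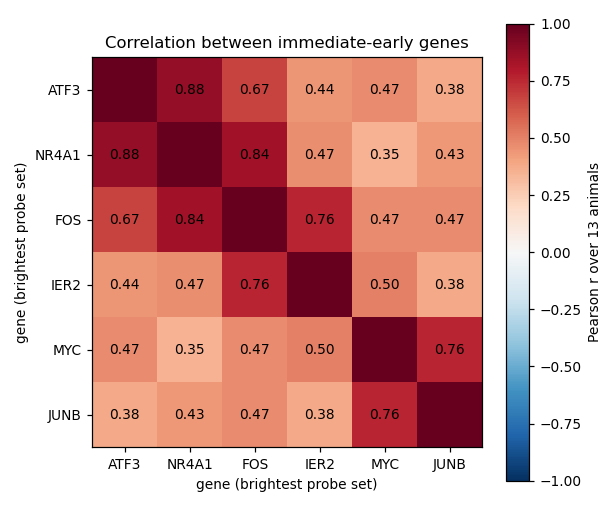
Pearson's r over 13 animals between the brightest probe sets of the 6 immediate-early genes, with the value in each cell and colour from -1 (blue) to 1 (red). All 15 pairs are positive, with the highest values for ATF3 with NR4A1, FOS with NR4A1, FOS with IER2, and JUNB with MYC. IER2 had lower values with NR4A1 (0.467) and ATF3 (0.440). These 2 were 0.711 and 0.671 without control replicate 4, and 0.271 and 0.191 without CR replicate 3.

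The correlations were also taken with the diet difference removed. With each animal taken as its deviation from its diet mean the median r was 0.503 and 4 of 15 pairs passed, and within the 8 CR animals it was 0.592 with 4 pairs past the threshold by exact permutation tests adjusted over the pairs. In both cases the 4 were ATF3 with NR4A1, FOS with NR4A1, FOS with IER2, and JUNB with MYC. The 5 controls were too few for a correlation of their own.

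**Figure D4:**
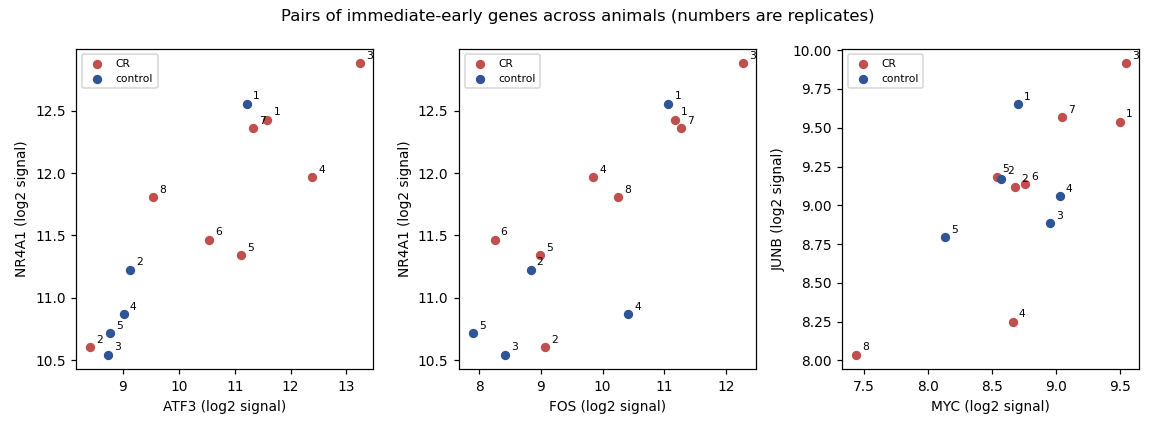
Log2 signals of 3 gene pairs in each animal, with CR in red, control in blue and replicate numbers beside the points. ATF3 with NR4A1 (r = 0.879) and FOS with NR4A1 (r = 0.837) have control replicates 3 and 5 toward the low end and CR replicate 3 at the high end, while MYC with JUNB (r = 0.763) runs from CR replicate 8 to CR replicate 3.

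Measures of the arrays and of other cell types were set beside the score, and their part in the pattern was not tested. The log2 ratio of 3-prime to 5-prime GAPDH control probe sets, a sign of RNA quality, had r = 0.303 with the score and rho = 0.159. It averaged 0.71 ± 0.13 in CR (SD, n = 8) and 0.58 ± 0.23 in control (SD, n = 5). The actin ratio had r = -0.148 and rho = -0.016, and the first principal component of all tested probe sets r = 0.035 and rho = 0.110. Single members went both ways with that component, with r = -0.438 for NR4A1, -0.339 for ATF3, 0.028 for FOS, 0.146 for JUNB, 0.345 for IER2 and 0.425 for MYC. With both ratios regressed out, the median r of the 15 pairs was 0.477 and 4 pairs passed. In bulk muscle, fewer cells of a type and less RNA per cell cannot be told apart. The mean log2 signal of fibroblast and matrix markers (7 of 8 genes tested) had r = 0.423 with the score, and its summed signal ran from 41547 to 100861 in CR and from 36527 to 148165 in control. Muscle fibre markers (15 of 18) had r = 0.245, and endothelial, pericyte and smooth muscle markers (11 of 16) had r = -0.171. The summed signal of the latter ran from 8617 to 30223 in CR and from 13599 to 40608 in control. By sign, 11 of 11 of them were lower in CR at their brightest probe sets, where 49.8% of all tested genes were higher. The other tested probe sets of CDH5 and TEK were higher in CR, with log2 differences of 0.55 and 0.26. Those of PECAM1, EMCN, TAGLN and MYH11 were lower. Myeloid markers (8 of 11) had r = -0.068, blood (2 of 6) 0.369, adipocyte (4 of 6) -0.049, satellite cell and regeneration (5 of 7) 0.068, and Schwann cell and nerve (4 of 6) 0.062, while no lymphocyte marker (0 of 6) was bright enough to be tested. Among the myeloid markers ITGAM had a mean log2 signal of 16.20, as bright as the fibre marker TNNC2 (16.20). The others lay between 7.13 and 9.17, and whether that probe set reads ITGAM was not tested.

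Relatives of the immediate-early factors were then examined from a list of 27 symbols of the AP-1, ATF, MAF, EGR, NR4A and MYC families, of which 15 had a tested probe set. With limma's test 0 rose and 0 fell in CR, and by sign 10 were higher and 5 lower (11 and 4 after quantile normalization), with a median log2 difference of 0.12. The lowest p in each direction gave MXD4, a MYC antagonist that binds MAX, at 0.38 ± 0.17 (SE, log2), ATF4, the factor of the integrated stress response, at 0.34 ± 0.18, and the MYC antagonist MXI1 at 0.20 ± 0.17. On the lower side MAFF, a small MAF factor, differed by -0.31 ± 0.26, ATF6, a sensor of protein folding in the endoplasmic reticulum, by -0.079 ± 0.21, and the AP-1 member FOSL2 by -0.051 ± 0.29. The other tested probe set of MXD4 differed by 0.046, and MXD4 was 0.21 with its probe sets averaged. ATF4 was 0.21 without control replicate 4, MXI1 0.13 without control replicate 3 and MAFF -0.18 without control replicate 1, while ATF6 and FOSL2 took either sign with single animals left out.

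Across animals part of this list followed the immediate-early score. Of the 15 relatives 6 had r over 0.5 with it, against 2.65% of the 9812 tested genes. They were NR4A2 (0.858), EGR2 (0.750), FOSL2 (0.639), MAFF (0.613), JUND (0.605) and JDP2 (0.567). MXD4 (-0.052) and ATF4 (0.023), the pair with the lowest p between the diets, did not follow it. EGR2, a zinc finger factor close to EGR1, ranged from 88.5 to 806 in CR animals with a median of 310, and from 91.8 to 519 in controls with a median of 224, and CR replicate 3 was again the highest. NR4A2, the receptor closest to NR4A1, ranged from 186 to 2627 in CR animals (median 379) and from 97.4 to 1613 in controls (median 176) at its brightest probe set, with CR replicate 1 and control replicate 1 the highest of their groups.

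A search over all tested genes outside the group for the pattern closest to the score gave NR4A2 first. Its best probe set had r = 0.898 (rho = 0.901, n = 13), and r was 0.860 without the 2 animals farthest from the median score. The other 4 NR4A2 probe sets ran from -0.226 to 0.882, so they did not all follow. The next were CHP2, a calcineurin-like calcium-binding protein, at 0.862, the ubiquitin ligase gene RNF122 at 0.829, DYNLL1, a dynein light chain, at 0.813, the neuropeptide gene NPFF at 0.809, SMIM19 at 0.809, LOC703985 at 0.804 and the TGF-beta receptor gene TGFBR1 at 0.797, whose other probe set had r = -0.040. The other probe sets of SMIM19 and LOC703985 had r = 0.447 and 0.314. Without the same 2 animals SMIM19 had r = 0.491 and RNF122 0.602, while the rest ran from 0.746 (TGFBR1) to 0.918 (NPFF). For FOS alone the closest were CLSPN, a replication checkpoint gene, with r = 0.923 (rho = 0.956), EGR2 with 0.879 (rho = 0.896), NR4A2 with 0.868 (rho = 0.824), ESS2 with 0.850 and the heparan sulfate proteoglycan gene SDC4 with 0.846. The other 2 probe sets of ESS2 had r = 0.448 and -0.060 with FOS. CLSPN, a gene whose transcript is known from dividing cells, ranged from 348 to 5556 in CR animals and from 511 to 3532 in controls. These ranks are the top of a search over the whole table and carry no test.

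Other rapid-response genes were taken as 53 symbols, older names included, of which 35 had a tested probe set. With limma's test 0 rose and 0 fell, 14 were higher and 21 lower in CR by sign (15 and 20 after quantile normalization), and the median log2 difference was -0.11. The genes with the lowest p on the higher side were IER5, an immediate-early gene linked to the heat shock response, at 0.96 ± 0.37 (SE, log2), the antiproliferative gene BTG2 at 0.60 ± 0.35 and SIK1, a salt-inducible kinase, at 0.67 ± 0.41. On the lower side they were the polo-like kinase gene PLK3 at -0.84 ± 0.59, GADD45B, a stress sensor, at -0.37 ± 0.28, and THBS1, which encodes the matrix protein thrombospondin, at -0.94 ± 0.71. Single animals moved several of these: GADD45B was -0.088 and THBS1 -0.47 without control replicate 4, THBS1 -1.65 without control replicate 5, PLK3 -0.45 without CR replicate 4, and BTG2 0.98 without control replicate 1 and 0.38 without control replicate 2. With RNA quality ratios as covariates THBS1 was -0.33 and BTG2 0.33. The other tested probe set of THBS1 differed by -0.11, and THBS1 was -0.53 with its probe sets averaged. IER5 ranged from 2196 to 9960 in CR animals (median 3533) and from 995 to 3361 in controls (median 2314), and its highest signal was in CR replicate 3.

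Of these 35 genes 6 had r over 0.5 with the score, against 2.65% of all tested genes. They were SIK1 (0.783), DUSP1 (0.591), IER5 (0.563), CCN2 (0.524), IER5L (0.517) and BTG2 (0.502), and the median over the 35 was 0.224. DUSP1 encodes the phosphatase that switches off MAP kinases, and it ranged from 5616 to 15844 in CR animals, with the highest in CR replicate 3, and from 6111 to 10764 in controls. Some genes often induced together with FOS had a negative r with the score. Among them were ZFP36 (-0.193), which promotes decay of short-lived transcripts, SOCS3 (-0.259), a brake on cytokine signalling, and the glucocorticoid-induced kinase gene SGK1 (-0.499). These were picked after their values were seen.

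Genes upstream of the immediate-early response and inducible heat shock genes gave the other lists. Of 32 upstream symbols 23 were tested, with 0 risen and 0 fallen by limma's test, 11 higher and 12 lower by sign (12 and 11 after quantile normalization, 8 and 15 after median centring), and a median of -0.0072. The MAP kinase kinase gene MAP2K2 differed by 0.28 ± 0.15 (SE, log2), CAMK2B, a calcium-dependent kinase subunit, by 0.45 ± 0.29 and the CREB relative CREM by 0.20 ± 0.21. MRTFB, a coactivator of serum response factor, differed by -0.26 ± 0.19, MEF2D, a muscle transcription factor, by -0.25 ± 0.19 and the ETS factor gene ELK3 by -0.32 ± 0.30. Without control replicate 4 CAMK2B was 0.14 and ELK3 -0.011, and ELK3 was -0.52 without control replicate 2. Without control replicate 1 CREM was 0.43, MRTFB -0.43 and MEF2D -0.40. CREM was 0.086 without control replicate 2, 0.13 without control replicate 5 and 0.13 without CR replicate 3, and MEF2D was -0.16 without control replicate 3. With RNA quality ratios as covariates MRTFB was -0.095 and MEF2D -0.10. With a gene's probe sets averaged MEF2D was 0.11, MRTFB -0.12 and ELK3 -0.14. The other tested probe sets of MRTFB and ELK3 differed by 0.020 and 0.039. None of the 23 had r over 0.5 with the score, and MRTFB had -0.674. As only 2.65% of all tested genes had r over 0.5, a list of 23 would often hold none. Of 10 heat shock genes 7 were tested. Again 0 rose and 0 fell by limma's test, but 7 of 7 were higher in CR by sign, also after quantile normalization and median centring, with a median of 0.22, where 49.8% of all tested genes were higher. These signs are those of the brightest probe sets, and the other tested probe set of DNAJB1 had a log2 difference of -0.079. HSPH1 differed by 0.33 ± 0.18, DNAJB1 by 0.32 ± 0.21 and CRYAB by 0.20 ± 0.18. CRYAB was 0.019 after quantile normalization, 0.099 without control replicate 4 and 0.33 without control replicate 2, and DNAJB1 was 0.21 without CR replicate 3. Of the 7 genes 6 had a positive r with the score and 2 had r over 0.5, with a median of 0.403. Over all tested genes the median r was 0.027. DNAJB1, a co-chaperone induced by heat shock factor, had r = 0.647 with the score and 0.772 with FOS, HSPA8, a constitutive chaperone, had 0.515 with the score, and HSP90AA1 was the 1 gene of the 7 with a negative r (-0.245).

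**Figure D5:**
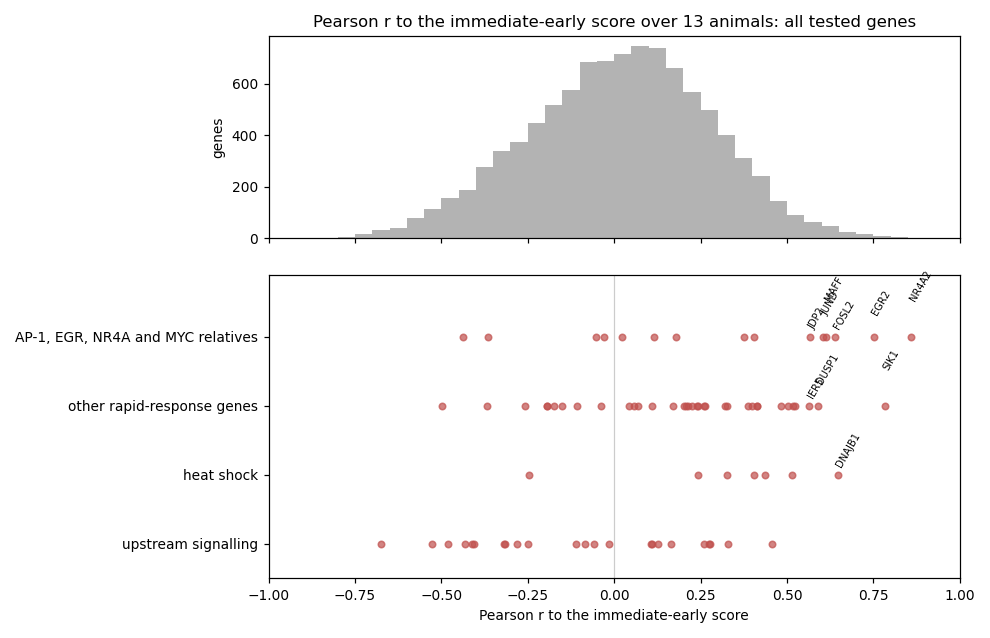
Upper panel, number of tested genes by Pearson's r to the immediate-early score over 13 animals, each gene by its brightest probe set. Lower panel, the same r for the tested genes of 4 lists, with names where r is over 0.55. NR4A2 (0.858), SIK1 (0.783) and EGR2 (0.750) lie at the right end. No upstream signalling gene exceeds 0.5, a value that 2.65% of all tested genes exceed.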

How the data were processed

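Labelled RNA of 13 muscle samples was run on Affymetrix arrays in one colour (per the labels). The deposited intensity values are linear MAS5 signals, 1 per probe set, as the submitters' processing notes name that method without a version. Of 52865 probe sets, 99 control probe sets were removed. Signals were floored at 1 (137 values), log2 transformed, and the dimmer 50% left out. MAS5 scaling fixes each array's trimmed mean, so a shift of most transcripts would not be seen. Symbols came from the platform annotation, and no sequence was used.

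Diets were compared with limma 3.58.1 (R 4.3.3, lmFit and eBayes with trend), two-sided, with an adjusted p under 0.05 as the threshold. The test was tried on simulated data. Single members were also compared by an exact permutation test over 1287 splits. Correlations used 100000 permutations, or all 40320 for 8 animals, checked on simulated pairs. Named genes were the members, up to 3 genes by p in each direction of 4 lists, and the closest patterns to the score (8) and to FOS (5); genes with r over 0.5 were added after their values were seen. Members and lists were chosen with earlier results of these data known. Replicate numbers did not pair animals. Alternatives covered normalization, offset (16), filters (none, or the brightest 25%), trend, array weights, RNA quality covariates, averaged probe sets, the replicate block and each animal left out. Figures used matplotlib 3.10.9.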

Additional observations from a re-analysis of the deposited data

Results flagged for a closer look

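Over 88 groups of one diet and one named probe set or score, 4 held an animal far from the others, and chance gives about 1 in 20, or 4.40. Control replicate 1 had the highest ATF3 signal among controls at the brightest probe set, 11.21 on the log2 scale with the next at 9.13. Control replicate 1 also had the lowest MRTFB signal among controls, 11.20, with the next at 11.95. Control replicate 4 had the highest IER2 signal among controls, 10.33, with the next at 9.07. CR replicate 2 had the lowest BTG2 signal among CR animals, 7.45, with the next at 8.17.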

How the results depend on the processing

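Of 29 named gene differences between the diets, 0 values passed limma's adjusted threshold under any alternative, and 23 kept their direction throughout. JUNB was 0.022 after quantile normalization and 0.089 with the replicate block, and from -0.14 to 0.13 with single animals left out. FOSL2 was 0.19 with the replicate block and from -0.25 to 0.10 with animals left out, MYC from -0.044 to 0.28 and ATF6 from -0.21 to 0.020. MEF2D was 0.11 with its probe sets averaged, and the second ATF3 probe set was -0.072 with the replicate block. The cause was not tested. Same-numbered animals of the 2 diets did not deviate together (r from -0.20 to 0.02 over 5 numbers), and with the replicate block the median difference of the 6 genes was 0.56, with 0 calls. That median ran from 0.36 to 0.68 with animals left out. Over all probe sets 0 to 1 passed with an animal left out, the 1 without control replicate 1 or without control replicate 5. At an unadjusted p under 0.05, 330 were higher and 311 lower in CR, and 241 and 340 after median centring. The 15 correlations were positive in 315 of 315 values over 21 settings. From 2 to 7 pairs passed with animals left out, 2 without CR replicate 3 and 7 without control replicate 4 or CR replicate 8, and the median r ran from 0.303 to 0.605. The third ATF3 probe set was too dim for the test, and a dim probe set's log2 difference depends on the background that MAS5 took off.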
